A study of Mus musculus with 103 samples.

Results

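The genes described here are those that encode the proteins of the cytosolic ribosome, chosen by symbol: names that begin with Rpl or Rps followed by a digit, together with Rplp0, Rplp1, Rplp2 and Rpsa, and without the S6 kinases (Rps6k). The rule found 93 symbols among 24014 in the table of macrophage RNA. Of these, 85 reached 1 RPKM in at least 2 of 6 libraries and are compared below, among 10605 such genes in all. RPKM is the number of reads per kilobase of transcript, scaled to the size of the library. The rule goes by name, so it also takes in genes that are not core ribosomal proteins. Among the 85 are 73 core names (40 of the large 60S subunit, 30 of the small 40S subunit and 3 of the stalk), 6 paralogs, 5 loci with a pseudogene suffix (-ps) and Rps19bp1, which encodes a protein that binds Rps19 and is not part of the ribosome.

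RNA came from peritoneal macrophages that male C57BL/6 mice, 6 to 8 weeks old and with no genetic change named in the labels, gather after an injection of 2.5 ml thioglycollate, with lavage on day 3 to 4. The cells were kept overnight in 0.5% serum and given 100 ng/ml KLA (Kdo2-lipid A, a pure agonist of Toll-like receptor 4) or left untreated. There was 1 library for each of 6 conditions: untreated cells as the control for 1 to 12 h, KLA for 1, 6 and 12 h, untreated cells as the control for 24 h, and KLA for 24 h. KLA at 1, 6 and 12 h shares 1 control library, so those comparisons are not independent, and no p-value can be given for any of them. The sources used here do not say whether a library held cells of 1 mouse or of several. SREBP1 and LXR, transcription factors of lipid metabolism, were read as peak lists, 1 list each, in macrophages of the same kind given the LXR agonist GW3965. The SREBP1 cells had 1 µM for 18 h per the label, and the LXR sample is titled GW3965, with 5 h in the file header, while its treatment label reads as a control.

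A ribosome has a large subunit, which joins amino acids, and a small subunit, which reads the mRNA. Each of its proteins is needed in about the same number as the others, and most are encoded by 1 active gene. Ribosomal protein mRNAs typically begin with a C followed by a run of pyrimidines, the 5′ terminal oligopyrimidine (TOP) motif. Through this motif the mTOR pathway controls their translation when serum, amino acids or growth signals change. The same genes have left very many processed pseudogenes, near-perfect copies of the spliced mRNA scattered over the genome, so a short read from such an mRNA often matches many places.

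The libraries were shallow, at 2205187 to 2674826 reads in total as recovered from the RPKM values, and 1 read in a transcript of 1 kb was worth 0.374 to 0.454 RPKM. Markers of macrophages were all expressed (10 of 10 tested, summed RPKM 8705 to 15392). The summed RPKM was 51.1 to 128 for neutrophil markers (2 of 6 in the table tested, Mpo at 0 throughout). It was 4.45 to 7.39 for lymphocyte and NK cell markers (4 of 7 tested), 82.7 to 150.5 for fibroblast and mesothelial markers (7 of 7 tested), 0.474 to 1.97 for dendritic cell markers and 0.281 to 0.799 for mast cell and eosinophil markers (none of either tested, and Cma1, Mcpt4, Epx and Prg2 of the latter at 0 throughout). Ratios of summed reads, each per library total, were taken over tested markers only, and long transcripts weigh more in them. With KLA for 6, 12 and 24 h, this ratio was 1.71, 2.46 and 1.76 for the neutrophil markers. Summed RPKM of all 6 was 72.8 and 105.5 at 6 and 12 h, against 51.1, and 128 at 24 h, against 53.2. For the fibroblast and mesothelial markers the read ratio was 1.26 at 24 h (summed RPKM 150.5 against 103). For the macrophage markers it was 0.951, 0.736, 0.790 and 0.828 at 1, 6, 12 and 24 h. Their summed RPKM was 14347, 9924 and 10281, against 15392, and 8705 at 24 h, against 12853. The part of these lists in the results below was not tested. In bulk RNA, fewer cells of a type and less RNA per cell cannot be told apart.

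To show the start of the genes, 40 bases of RefSeq sequence (20 before and 20 from the annotated start on, build GRCm38.p6, 5′ to 3′) are printed for 10 of them. Rplp2, Rps6, Rps10, Rps9, Rpl13a and Rpl4 carry a long pyrimidine run, in capitals, at or beside the start, and Rps3, Rps16, Rpl36al and Rps19bp1 have a run of at most 3. The first 6 and the last 4 include genes that return in the results for a high level or a large difference. Capitals mark the longest unbroken run of C and T that lies within 5 bases of the start.
Rplp2 (chr7:141447631-141447670, + strand): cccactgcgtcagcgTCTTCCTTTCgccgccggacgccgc
Rps6 (chr4:86857348-86857387, - strand): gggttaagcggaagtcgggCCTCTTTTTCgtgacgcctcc
Rps10 (chr17:27635225-27635264, - strand): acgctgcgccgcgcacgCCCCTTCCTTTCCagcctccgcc
Rpl4 (chr9:64173367-64173406, + strand): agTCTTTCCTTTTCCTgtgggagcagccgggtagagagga
Rps9 (chr7:3704021-3704060, + strand): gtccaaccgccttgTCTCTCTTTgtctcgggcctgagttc
Rpl13a (chr7:45128726-45128765, - strand): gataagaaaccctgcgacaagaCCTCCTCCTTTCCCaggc
Rps3 (chr7:99483690-99483729, - strand): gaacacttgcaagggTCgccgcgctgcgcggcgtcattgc
Rps16 (chr7:28350669-28350708, + strand): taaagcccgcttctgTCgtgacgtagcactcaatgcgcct
Rpl36al (chr12:69184048-69184087, - strand): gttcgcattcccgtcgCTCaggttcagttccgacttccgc
Rps19bp1 (chr15:80264287-80264326, - strand): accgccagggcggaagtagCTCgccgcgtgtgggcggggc

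Of the 85 genes, 61 had an entry in the RefSeq promoter table (72 entries, and 9 genes with more than 1 start). A C at the start with 4 pyrimidines after it was found in 12 of the 61 (19.7%), against 2.94% of 7933 expressed genes with an entry and 3.01% of all 27025. All 12 were core names, 12 of 55, and none of the 6 other names with an entry had it. A pyrimidine run of 8 or more at or near the start was present in 37.7% of the ribosomal protein genes and 12.3% of expressed genes. The start in Rpl4 and Rpl13a lies just outside a long run, so the share with the exact motif depends on where RefSeq puts the first base. Over the 300 bases from 250 before to 50 after the start, on both strands, CCGGAAG (an ETS-type motif) was present in 42.6% of these genes and 22.1% of expressed genes, and ATGGCG (YY1-type) in 31.1% and 19.1%. The SP1-type letters GGGCGG were at 63.9% and 69.8%. Of the motifs that were rarer, TATAAA, from the TATA box, was at 11.5% and 8.56%. The E-box bound by Myc, CACGTG, was at 9.84% and 12.3%. Some matches overlap another motif, and each is a match of letters and not a measured site.

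Levels were spread over a wide range. The mean RPKM over the 6 libraries had a median of 26.3 and was lowest, at 0.709, for Rpl39l, against a median of 8.06 for all genes tested. Means of at least 100 were found for 20 genes and means under 5 for 19. All values per library below are in the order untreated 1–12 h, KLA 1 h, KLA 6 h, KLA 12 h, untreated 24 h, KLA 24 h. Rplp1, an acidic stalk protein, was at 665, 610, 425, 478, 434 and 303 RPKM. Rpl8, which lies near the peptidyl transferase centre, was at 529, 410, 375, 408, 318 and 301 RPKM. Rpl4, whose loop lines the exit tunnel, Rpl32 and Rps20 had means of 275, 266 and 264 RPKM. The order of these genes by level was nearly the same in every library, with a Spearman rho across the 85 genes of 0.965 to 0.980 with the untreated 1–12 h library (a description across genes, which share these libraries).

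**Figure D1:**
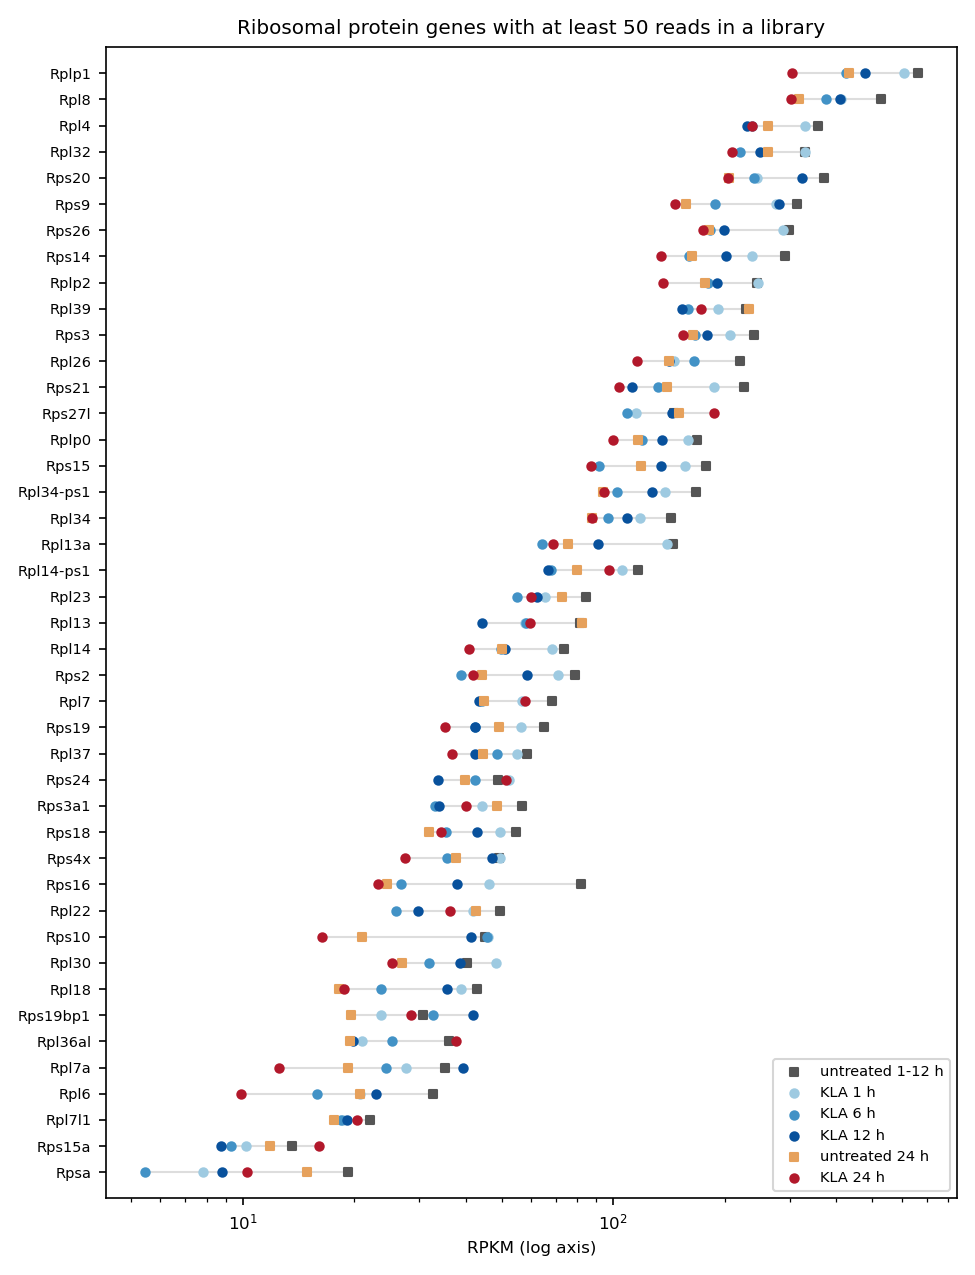
RPKM (log axis) of 43 of the 46 ribosomal protein genes with at least 50 reads in a library, sorted by mean, with 1 point per library and a grey line from the lowest to the highest. The untreated 1–12 h library (dark square) is highest for 30 of the 43 genes drawn, a count not made over all genes tested.

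At the low end were core proteins as well as copies. Rps6, the 40S protein that S6 kinases phosphorylate, was at only 2.93, 1.80, 1.82, 2.05, 3.33 and 2.42 RPKM, from 9 to 12 reads in the untreated libraries. Rpl9 (mean 0.930 RPKM), Rpl17 (0.961), Rpl36 (0.861) and Rpl11 (2.22) are core 60S proteins, and Rps27a, one of the genes that make ubiquitin as a fusion with a ribosomal protein, had a mean of 2.70. Rpl5, which with Rpl11 binds 5S rRNA and can inhibit Mdm2, was at 8.99, 8.05, 3.55, 3.85, 5.94 and 2.41 RPKM. Rpl10, added late to the 60S subunit, had a mean of 6.32. Under 10 reads in every library were found for 15 of the 85 genes, so counting error is large in their ratios. The 8 symbols that did not pass the filter include the core names Rpl21, Rpl27 and Rpl28, the paralogs Rpl10l (known from testis) and Rpl3l (known from muscle), the retrogene Rps27rt and the pseudogene Rpl31-ps12. Rpl10l and Rpl3l had no read in any library.

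The share of each transcript that a short read can place uniquely was measured on the reference. Every 50-base window of the spliced transcript was looked up in GRCm38, and a window was unique if it was found nowhere else in the chromosomes. The sources used here do not give the read length or the treatment of reads with several matches, and 50 bases is a choice made for this purpose. The median share of unique windows was 36.0% in the 85 genes and 98.9% in all genes tested. Under 50% were 52 of the 85, against 3.37% of genes tested, and 28 were under 20%. Rpl28 had 0%, Rpl12 0.679%, Rps12 1.92%, Rpl9 2.96% and Rps6 25.2%, while Rps3 had 95.5%, Rpl22 94.1% and Rpl8 90.8%. For 8 of the 85 (Rpl11, Rpl29, Rpl38, Rpl39, Rps4x, Rps20, Rps24 and Rps28) the GRCm38 transcript differed by over 10% in length from the row whose RPKM is used, most in Rps20 (3446 against 501 bases), so their shares do not describe that row. In the other 77 the median share was 38.9%, with 47 under 50%, 25 under 20% and 10 from 80% up. Rpl34-ps1, with a share of 0%, is among the 77 because its length matched. Its row spreads 412 bases over chr3:130429755-130433247 (mm9), while its GRCm38 transcript had no exon junction, so this share does not describe that row either. The median of the mean RPKM was 9.96 in the 28 genes under 20%, 30.9 in the 24 from 20 to under 50%, 46.2 in the 22 from 50 to under 80%, and 37.7 in the 11 from 80% up. The rank correlation of level with uniqueness was weak (Spearman rho 0.26 across 85 genes, a description). How far reads without a unique place changed these levels was not tested. Ratios of 1 gene between libraries use the same windows on both sides.

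**Figure D2:**
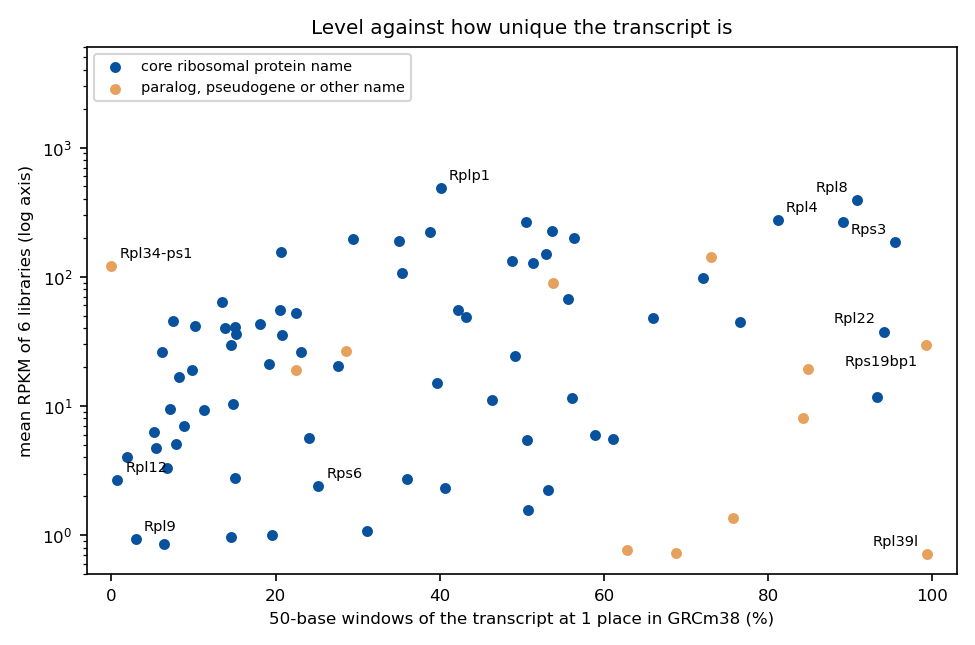
Mean RPKM over 6 libraries (log axis) against the percent of 50-base windows found at 1 place in GRCm38, 1 point per gene for 82 of the 85 genes, those with another transcript length in GRCm38 included, core names in blue and other names in orange. Genes under 20% unique reach at most 120 RPKM, which is Rpl34-ps1, whose row overlaps that of Rpl34, while the genes drawn above 80% span from 0.709 (Rpl39l) to 390.2 RPKM (Rpl8). The share of Rpl34-ps1 was measured on a GRCm38 transcript without exon junctions, unlike its row.

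Some rows share reads with a neighbour. The row of Rpl34-ps1 lies on the same strand inside the Rpl34 locus, and both followed the same course (167, 138, 102, 127, 93.8 and 94.4 RPKM against 143, 118, 97.0, 109, 87.4 and 87.6), so they cannot be counted as 2 signals. Gm15772 overlaps Rpl26 and Gm12191 overlaps Rpl30 in the same way. Rps15a-ps6 sits within Nudcd3, whose own level was 18.9 RPKM. Within 21 of the 85 genes lie 31 rows for small nucleolar RNAs, which guide rRNA modification and are typically cut from introns of such host genes.

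As a set, the ribosomal protein genes took the largest share of reads in the untreated 1–12 h library. They held 0.691% of the reads in genes there (95% exact binomial interval 0.679% to 0.703%), 0.575% at KLA 1 h (0.565% to 0.586%), 0.476% at KLA 6 h (0.466% to 0.485%) and 0.551% at KLA 12 h (0.541% to 0.561%). The share was 0.474% in the untreated 24 h library (0.465% to 0.484%) and 0.460% at KLA 24 h (0.452% to 0.469%). The intervals cover counting error only, since reads are not independent molecules. The lower share therefore marks all 5 other libraries, the other untreated one included, and not KLA alone. The 5 genes with most reads held 41.6% of the reads of the set, so shares and sums follow a few genes more than medians do. Of the 46 genes with at least 50 reads in a library, 32 were highest in the untreated 1–12 h library and 22 were lowest at KLA 24 h. The same counts were not made over all genes tested, so they are not shown to be particular to the set. The scaling factors from the median ratio of all genes were 1.17 and 1.18 in the untreated 1–12 h and 24 h libraries. With KLA they were 1.01, 0.803, 0.895 and 1.09 at 1, 6, 12 and 24 h.

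With each KLA library against its control paired by label, the set differed most in median from all genes tested between the 2 untreated libraries. The difference in median log2 ratio was -0.54 there. It was larger in size, at -0.60, for KLA 24 h against the untreated 1–12 h library, which is not its paired control. From here on, changes are log2 ratios after adding 1 to each RPKM, a scale that shrinks the change of genes with low levels. A gene counts as higher or lower at 1.5-fold on that scale. The median log2 ratio of the untreated 24 h to the untreated 1–12 h library was -0.51 over the 85 genes and 0.02 over all genes tested. Lower were 34 of the 85, where 9.51% of all genes tested were, and higher were 6, where 9.7% of all genes were. Below the median of all genes lay 72 of the 85. After rescaling the libraries by the median ratio of all genes the median was -0.53. The summed reads of the set, per library total, were 0.677 times those of the earlier control (0.660 to 0.695, 95% exact conditional binomial interval on reads, counting error only). The 60S core names had a median of -0.46, the 40S names -0.56 and the 3 stalk genes -0.53. With 1 library on each side, how much of this comes from time in culture, from the culture itself or from the library cannot be told apart.

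Rps16, a 40S protein whose tail reaches the peptidyl site, was at 82.0, 46.2, 26.8, 37.9, 24.6 and 23.1 RPKM. It was 3.34 times lower in the untreated 24 h than in the untreated 1–12 h library (2.30 to 4.94), and every library other than the first was lower than the first. Rpl18 was at 42.8, 38.7, 23.6, 35.6, 18.2 and 18.8 RPKM and was 2.35 times lower between the controls (1.51 to 3.71). Rps10, a protein of the 40S head, was at 45.2, 45.9, 45.7, 41.4, 21.0 and 16.3 RPKM, level through 12 h of KLA and lower in both 24 h libraries. Its ratio between the controls was 0.464 (0.289 to 0.730). Rps9, at 313, 275, 189, 280, 158 and 147 RPKM, was 1.99 times lower (1.71 to 2.31). Unique windows made up 13.8% of Rps16, 14.6% of Rpl18, 15.2% of Rps10 and 53.7% of Rps9. The 4 genes at the other end were Rps27l, Rpl13, Rpl39 and Rps15a, with log2 ratios from -0.19 to 0.04, and the intervals of all 4 ratios include 1.

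**Figure D3:**
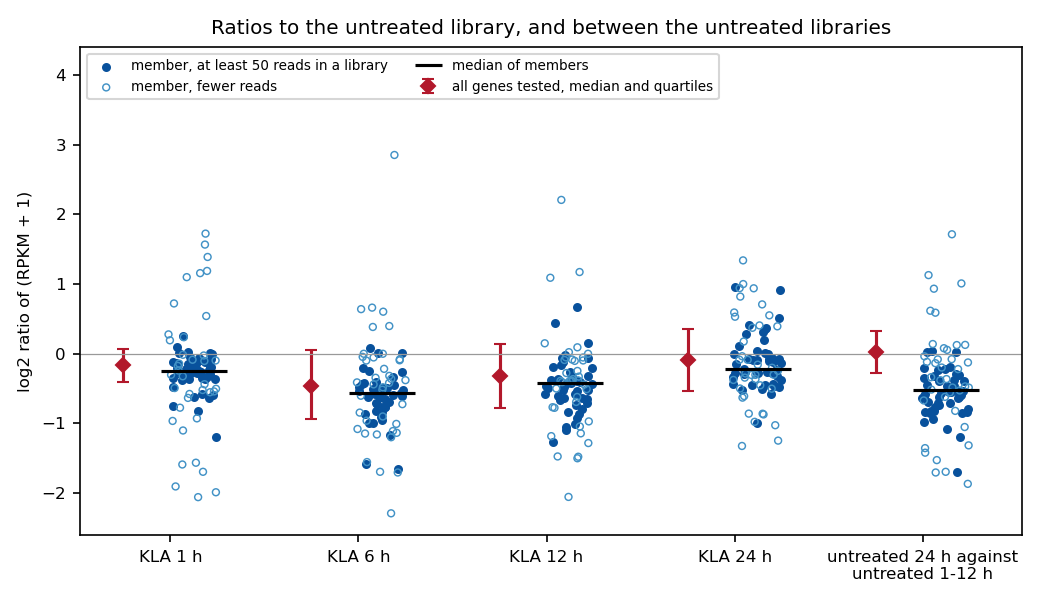
Log2 ratios of RPKM + 1 for the 85 ribosomal protein genes in each comparison, filled points for genes with at least 50 reads in a library and open points for the rest, with the median as a black bar. Red diamonds give the median and quartiles of all 10605 genes tested. The bar lies near the diamond in the 4 KLA comparisons and 0.54 below it between the untreated libraries.

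With KLA, at the main setting and with the control paired by label with each time, the set lay close to the bulk of the transcriptome. At 1 h the median log2 ratio to the untreated 1–12 h library was -0.24, against -0.16 for all genes. At 6 h it was -0.56 against -0.46, at 12 h -0.42 against -0.32, and at 24 h, against the other control, -0.22 against -0.09. Relative to all genes the set was thus lower by 0.08, 0.10, 0.10 and 0.13 on the log2 scale. These differences depended on the setting. They were -0.06, -0.05, -0.06 and -0.13 with 0.1 added to each RPKM, and -0.10, -0.19, -0.15 and -0.11 with 3 added. With a filter of 10 RPKM in 2 libraries they were -0.08, -0.18, -0.19 and -0.13. Without a filter, where the median of all genes was 0, they were -0.23, -0.51, -0.40 and -0.16. Rescaling by the median ratio of all genes left medians of -0.032, -0.054, -0.054 and -0.11, all on the same side. The choice of control decided the direction at 1 h and 12 h: against the untreated 24 h library, the medians at 1 h and 12 h were 0.32 and 0.031, and that at 6 h -0.032. All genes tested had medians of -0.20, -0.46 and -0.34 at 1, 6 and 12 h there. The set was thus 0.51, 0.43 and 0.37 above all genes, and its closeness to them also depended on the control. Against the untreated 1–12 h library, the median at 24 h was -0.68, which was 0.60 below that of all genes (-0.07). Over the 11 genes with at least 80% unique windows, a setting chosen after seeing the data, the median at 24 h was 0.18, above 0. It was 0.19 without Rps20, whose share was measured on another transcript.

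Counts of lower genes were close to the background at 6 and 12 h, above it at 1 h and below it at 24 h, and counts of higher genes were near or below it. At 1 h, 17 of the 85 were lower (20.0%), where 14.4% of all genes tested were, and 7 were higher, where 6.66% were. At 6 h, 40 were lower (47.1%), where 42.8% of all genes were, and 4 higher, where 13.5% were. At 12 h, 28 were lower (32.9%), where 34.4% were, and 4 higher, where 13.5% of all genes were again. At 24 h, 11 were lower (12.9%), where 22.6% were, and 9 higher, where 16.9% were. Among the 46 genes with at least 50 reads in a library, 6, 24, 15 and 1 were lower at 1, 6, 12 and 24 h, and at most 2 were higher at any of these times. The higher counts over all 85 thus came mostly from genes with few reads, such as Rpl9, Rpl11 and Rpl24. Rpl24, with 15.1% unique windows, had no read in the untreated 1–12 h library. Counts with the minimum of 50 reads were not made over all genes tested, so those of the 46 describe these genes only.

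Within the 60S subunit, Rpl13a, which is released from the ribosome to silence inflammatory mRNAs in the GAIT complex of interferon-treated myeloid cells, was at 145, 139, 64.1, 90.9, 75.4 and 68.6 RPKM. At 6 h of KLA it was 2.26 times lower than its control (1.86 to 2.75). Rpl6 was at 32.7, 20.7, 15.9, 22.9, 20.7 and 9.88 RPKM. It was the only one of the 46 well-read genes lower by 1.5-fold at 24 h, where it was 2.10 times lower (1.36 to 3.29). Rpl7a, with 6.14% unique windows, was at 35.2, 27.5, 24.4, 39.3, 19.3 and 12.6 RPKM. Its ratio at 12 h, 1.12, has an interval of 0.799 to 1.56. Rpl30, a 60S protein, was the highest of the well-read genes at 1 h with a ratio of 1.20 (0.803 to 1.80). The highly expressed Rpl8 had ratios of 0.776 (0.707 to 0.851), 0.710 (0.645 to 0.781), 0.772 (0.704 to 0.846) and 0.947 (0.852 to 1.05) at 1, 6, 12 and 24 h. Of the 40 core 60S genes, 7, 17, 12 and 7 were lower and 5, 4, 2 and 4 were higher at the 4 times, where 14.4%, 42.8%, 34.4% and 22.6% of all genes tested were lower and 6.66%, 13.5%, 13.5% and 16.9% higher. As shares of the 40 that is 17.5%, 42.5%, 30% and 17.5% lower and 12.5%, 10%, 5% and 10% higher.

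Within the 40S subunit, 6, 18, 13 and 4 of 30 core genes were lower (20%, 60%, 43.3% and 13.3%) and 1, 0, 2 and 3 were higher (3.33%, 0%, 6.67% and 10%), to be read against the same shares of all genes tested. Rpsa, also known as the precursor of the laminin receptor, was at 19.3, 7.84, 5.44, 8.79, 15.0 and 10.3 RPKM. Among well-read genes it was the lowest by ratio at 1 h (2.46 times lower, 1.63 to 3.77) and 6 h (3.54 times lower, 2.22 to 5.85), and each KLA library was below both untreated ones. Rps2, at the mRNA entry, was at 78.6, 71.0, 38.9, 58.6, 44.2 and 42.0 RPKM and was 2.02 times lower at 6 h (1.56 to 2.64). Rps21 was at 226, 187, 132, 112, 140 and 104 RPKM and was 2.01 times lower at 12 h (1.58 to 2.57). Rps3, a protein of the mRNA entry channel with 95.5% unique windows, was at 240, 206, 166, 179, 165 and 154 RPKM. Its ratios were 0.860 (0.785 to 0.941), 0.692 (0.628 to 0.762), 0.746 (0.679 to 0.819) and 0.937 (0.848 to 1.04). Rps19, the gene most often mutated in Diamond-Blackfan anaemia, was at 65.0, 56.4, 42.3, 42.3, 49.2 and 35.1 RPKM, with a ratio of 0.713 at 24 h whose interval (0.501 to 1.01) includes 1. Rps24 (48.8, 52.3, 42.4, 33.7, 39.8 and 51.4 RPKM) and Rps4x (49.2, 49.5, 35.6, 47.2, 37.5 and 27.3 RPKM) were among the highest at 1 h, with ratios of 1.07 (0.801 to 1.44) and 1.01 (0.754 to 1.34). Rps15a, read from a transcript of 5133 bases, was at 13.6, 10.2, 9.28, 8.76, 11.8 and 16.1 RPKM and was 1.36 times its control at 24 h (1.11 to 1.68), within the 1.5-fold limit.

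**Figure D4:**
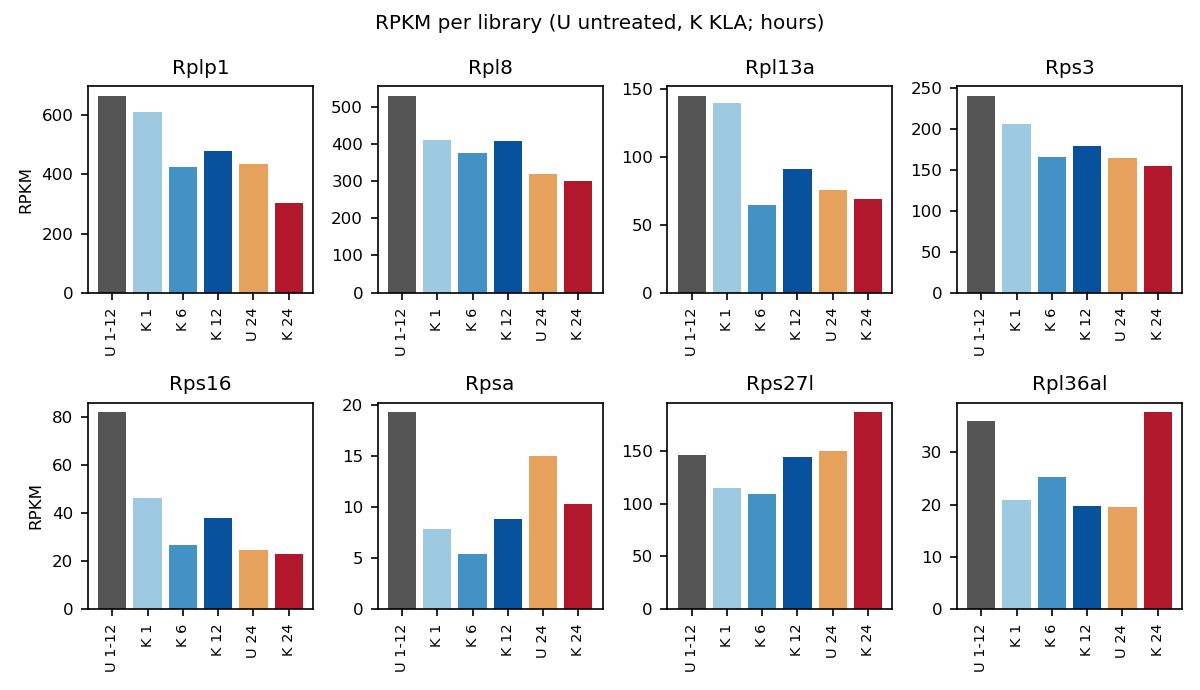
RPKM in each of the 6 libraries for 8 ribosomal protein genes, 1 bar per library from 0, each panel on its own scale. Rplp1, Rpl8, Rpl13a, Rps3, Rps16 and Rpsa are highest in the untreated 1–12 h library, and Rps27l and Rpl36al are highest at KLA 24 h.

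The stalk proteins bind the factors that drive elongation. Rplp0, the base of the stalk, was at 169, 159, 119, 135, 117 and 100.1 RPKM, and Rplp2 at 244, 245, 180, 190, 177 and 136 RPKM. Together with Rplp1, all 3 were lower in the KLA library than in the control at 6, 12 and 24 h. The ratio of their summed reads, each per library total, was 0.941 (0.875 to 1.01) at 1 h and 0.680 (0.627 to 0.737) at 6 h. It was 0.758 (0.702 to 0.820) at 12 h and 0.770 (0.704 to 0.841) at 24 h. The 24 h value of Rplp1 alone was 0.700 (0.611 to 0.800). Of the core groups, the stalk had the lowest median at 24 h, -0.37 against -0.26 for the 60S names and -0.27 for the 40S names, though with only 3 genes.

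The 12 genes with a paralog, pseudogene or other name did not share the lower median of the core genes at 24 h. Their median log2 ratio was 0.30, with 10 of 12 above 0, against -0.27 for the 73 core names, where 16 were above 0, and -0.09 for all genes. The 6 of them with at least 50 reads in a library were all above 0. Among the 10, Rpl39l, Rps19-ps3 and Rps15a-ps6 had only 1, 2 and 4 reads at KLA 24 h, against 0, 1 and 1. Rpl34-ps1, which cannot be counted apart from Rpl34, is among both the 10 and the 6, at 94.4 against 93.8 RPKM. The difference between the groups was not tested. At 1, 6 and 12 h, the medians of the 12 genes were -0.35, -0.42 and -0.30. Rps27l, a paralog of Rps27 that p53 can induce, was at 146, 115, 109, 144, 150 and 187 RPKM, with a ratio of 1.24 at 24 h (1.02 to 1.52). Rpl36al, a paralog of Rpl36a, was at 36.0, 21.0, 25.3, 19.8, 19.5 and 37.7 RPKM. Its ratio at 24 h was 1.94 (1.19 to 3.23), and its first control was as high as the KLA 24 h library. Rps19bp1, also known as an activator of the deacetylase Sirt1, was at 30.6, 23.6, 32.5, 41.9, 19.6 and 28.4 RPKM, and its ratios at 12 h (1.37, 0.965 to 1.95) and 24 h (1.45, 0.967 to 2.20) have intervals that include 1. Rpl7l1, a paralog of Rpl7, changed least of the well-read genes, at 22.1, 18.7, 18.4, 19.1, 17.7 and 20.4 RPKM. Rpl22l1 had a mean of 18.9 RPKM, and Rpl22 one of 37.7.

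Members of paralog pairs had very different levels. Rps4x (mean 41.1 RPKM) was above its autosomal copy Rps4l (8.01 RPKM, 84.3% unique windows), and Rpl39 (189 RPKM) was far above Rpl39l (0.709 RPKM, 99.3% unique). Rpl22, at 49.5, 41.8, 25.9, 29.8, 42.7 and 36.3 RPKM, had 94.1% unique windows. Apart from Rpl34-ps1, the pseudogene-named loci were Rpl14-ps1 (mean 89.1 RPKM, 53.8% unique windows), Rps15a-ps4 (1.36), Rps19-ps3 (0.772) and Rps15a-ps6 (0.726). Rpl14-ps1 lies opposite Trpm4 on the other strand, and its parent Rpl14 was at a mean of 55.6 RPKM.

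Genes around the ribosome were read from fixed lists for comparison. Gnb2l1, the 40S scaffold also called Rack1 and outside the symbol rule, was at 772, 650, 493, 537, 542 and 476 RPKM, and like most of the set it was highest in the untreated 1–12 h library. The elongation factors Eef1a1 and Eef2, whose mRNAs also carry a TOP motif, had log2 ratios of -0.72 and -0.80 at 6 h and of -0.54 and -0.27 between the untreated libraries. Tpt1, another TOP mRNA, was at 321, 323, 160, 153, 127 and 69.5 RPKM, with log2 ratios of -1.34 between the untreated libraries and -0.86 at 24 h. The 17 genes of that list had medians of -0.14, -0.48, -0.45 and -0.03 at 1, 6, 12 and 24 h, and -0.27 between the untreated libraries. Over 53 factors that assemble ribosomes, the medians were -0.17, -0.08, 0.03 and 0.21, against -0.16, -0.46, -0.32 and -0.09 for all genes tested. At 24 h, 10 of them were higher (18.9%), near the 16.9% of all genes tested, and 0 were lower, where 22.6% of all genes were. Nucleolin (Ncl), a nucleolar rRNA processing protein, had a log2 ratio of 0.36 at 24 h, and Npm1 of 0.04.

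The 77 ribosomal proteins of mitochondria, encoded by separate Mrpl and Mrps genes, were also compared. Their medians were -0.37, -0.55, -0.14 and 0.30 at 1, 6, 12 and 24 h, and at 24 h 23 were higher (29.9%) and 2 lower (2.6%), where 16.9% and 22.6% of all genes tested were. Relative to all genes, they were 0.19 higher at 12 h and 0.40 higher at 24 h, where the cytosolic set was 0.10 and 0.13 lower. The difference was not tested, and between the untreated libraries both sets were lower (-0.25 and -0.51). Myc, a transcription factor that drives ribosome production in growing cells, was at 6.82, 61.6, 6.69, 3.07, 8.07 and 3.59 RPKM, with a log2 ratio of 3.00 at 1 h. The S6 kinase and mTOR list (21 genes tested) had medians of -0.07, -0.39, -0.35 and -0.12.

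**Figure D5:**
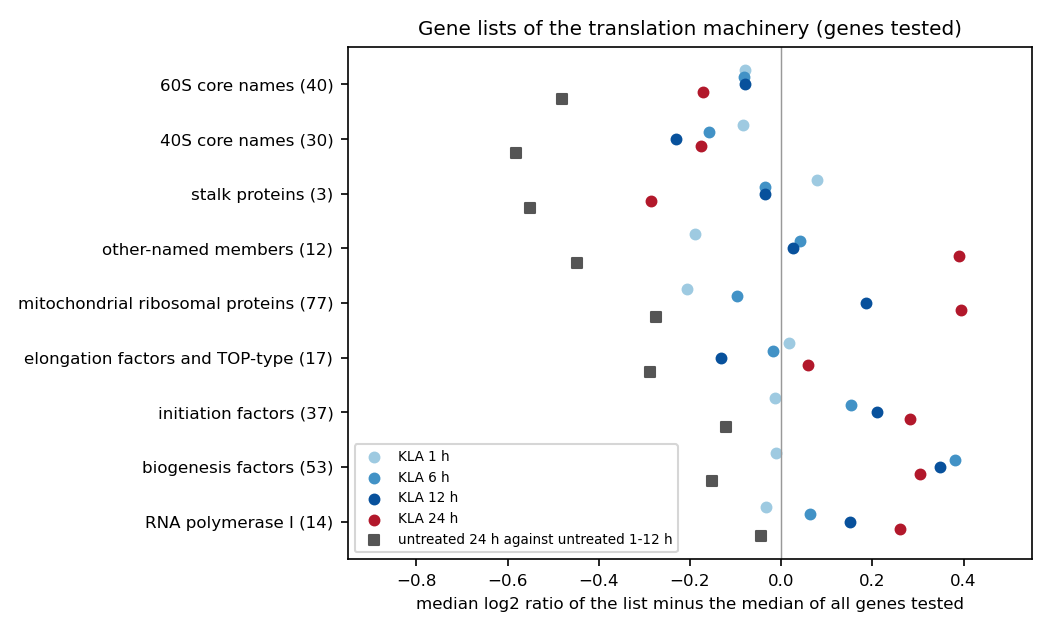
Median log2 ratio of each list of translation genes minus the median of all genes tested, for 4 KLA comparisons (circles) and for the comparison between the untreated libraries (squares), with the number of genes tested in brackets. The core ribosomal protein groups lie furthest to the left between the untreated libraries (-0.48 to -0.58), and the biogenesis factors and mitochondrial ribosomal proteins lie to the right at KLA 24 h (0.30 and 0.40).

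Small nucleolar RNA rows lie within 21 of these genes. The hosts had medians of -0.32, -0.76, -0.62 and -0.28 at 1, 6, 12 and 24 h, which is 0.16, 0.30, 0.30 and 0.19 below all genes tested. At 6 h, 14 of 21 were lower (66.7%) and none higher, where 42.8% and 13.5% of all genes tested were. This group was formed after the levels were seen, and its difference from the other ribosomal protein genes was not tested.

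Peaks of the lipid factors SREBP1 and LXR were counted at the starts of ribosomal protein genes. A peak was counted when its centre was within 1000 bases of the start in mm9. SREBP1 peaks were found at 31 of the 85 genes (36.5%), where 41.2% of all genes tested had one, and at 44.4% of the 2864 genes with a mean RPKM of at least 20. LXR peaks were found at 51 (60.0%), where 52.2% of all genes tested and 61.5% of those well-expressed genes had one. With only the peaks at or above the median score of each list, SREBP1 peaks were at 23.5% of the 85, against 32.6% of all genes tested and 36.1% of the well-expressed ones, and LXR peaks at 21.2%, against 26.2% and 34.2%. Within 300 bases of the start, LXR peaks were at 47.1% of the 85, against 36.5% of all genes tested and 43.5% of the well-expressed ones. SREBP1 peaks were at 17.6% there, against 18.8% and 20.5%. The shares were thus near those of other genes for all peaks and lower for the upper part of each list. For LXR within 300 bases the share was above that of all genes tested. The differences were not tested. Both factors had a peak at 19 of the 85. Rpl34 and Rpl34-ps1 have the same SREBP1 peak and the same LXR peak. The counts of 31, 51 and 19 thus include that locus under both names. The authors' normalised tag counts of these SREBP1 peaks ran from 6.97 to 32.4, with a median of 10.2. Tag counts were scaled to 10000000 from a total of 24395376 for SREBP1 and 7501248 for LXR. They are thus not compared between the 2 lists. The best ranked SREBP1 peak, at Rps19bp1 (chr15:80094804-80094998), ranked 551 of 13984 by the authors' score.

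Among LXR peaks, 1 stood apart. The peak 81 bases before the start of Rpl19 (chr11:97888065-97888249, mm9) had 746.5 normalised tags and ranked 6 of 40660 by the authors' score. The median of the 51 LXR peaks was 22.7 tags. Rpl19 itself, at 12.1, 7.77, 11.2, 9.79, 4.12 and 12.0 RPKM, had only 7.11% unique windows. The peak at Rpl10a (chr17:28464783-28464967) had 69.3 tags and ranked 4969. Rpl10a was at 21.3, 12.1, 6.61, 6.90, 11.7 and 4.06 RPKM, from 39 reads down to 9. RNA after GW3965 is not analysed here, so no peak can be set beside a change of its gene with the ligand.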

How the data were processed

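Poly(A) RNA of 6 macrophage libraries and 2 ChIP-seq peak lists were analysed, 8 of 103 labelled samples, with 1 library a group. RPKM values were computed by the authors per transcript on mm9 and deposited as 1 table of 33022 transcripts, and the submitters' processing notes name Bowtie 0.12.7, STAR and HOMER with no role for each. The sources used here do not give strand use, so overlapping genes cannot be told apart. Per the file headers, HOMER called the peaks (194 bases for SREBP1, 184 for LXR) at 4-fold over input and a false discovery rate of 0.001. For LXR the header names an input of cells given KLA for 24 h, so sample and input differ in treatment. The tag signal scaled to 10000000 tags, the fold over input and the peak score are the authors' values, used only to describe and rank peaks.

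Each gene was its transcript of highest mean RPKM, filtered at 1 RPKM in 2 libraries. Ratios are log2 of RPKM + 1. Reads were recovered as RPKM × length × a library total (99.97% whole within 0.01 read), and the totals were 2205187, 2399933, 2372816, 2447142, 2587519 and 2674826. They give 95% Clopper-Pearson intervals on plain ratios, for counting error only, and a count of 0 allows up to 3 reads. Ratios and intervals were tested on simulated reads. Named genes are the 4 highest and 4 lowest by ratio per comparison among genes with at least 50 reads in a library, the 6 highest and 6 lowest by level, genes failing the filter, and genes of fixed roles, though results for some of them are not reported here. Small nucleolar RNA hosts, unique-window classes and single peaks were chosen after their values were seen. The genes and lists were chosen with earlier results of these data known. Alternatives changed the pseudocount, filter, scaling, control, transcript choice and gene set. Python 3.11.15, numpy 2.4.6, pandas 2.3.3, scipy 1.17.1, numba 0.67.0 and matplotlib 3.10.9 were used.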

Additional observations from a re-analysis of the deposited data

How the results depend on the processing

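Each condition had 1 library, so nothing here measures the spread between cultures or animals, and 15 of the 85 genes had under 10 reads in every library. For most of these genes many short windows match several places in the genome, and how such reads were counted was not tested. With a pseudocount of 3 in place of 1, the genes at least 1.5-fold higher were 4, 1, 2 and 4 at 1, 6, 12 and 24 h of KLA, and 2 between the untreated libraries. With a filter of 10 RPKM in 2 libraries, which leaves out the genes with few reads, 0, 0, 1, 4 and 0 were higher in the same order, and 7, 18 and 5 were lower at 1, 12 and 24 h. After rescaling by the median ratio of all genes, the medians at 1, 6 and 12 h were -0.032, -0.054 and -0.054 (log2), 11, 12 and 13 genes were lower, and 7 were higher at 6 h. Against the other untreated library, the medians were 0.32, -0.032, 0.031 and -0.68 at 1, 6, 12 and 24 h, so that those at 1 and 12 h changed sign. Those of all genes tested were -0.20, -0.46, -0.34 and -0.07. The set was thus 0.51, 0.43 and 0.37 above all genes at 1, 6 and 12 h and 0.60 below them at 24 h. Against that library, 18, 9 and 14 genes were higher at 1, 6 and 12 h, and 8, 15, 10 and 51 were lower at 1, 6, 12 and 24 h. Shares of all genes under the settings of this paragraph are not given, so these counts describe the set only. They cannot be read against the shares given for the main setting.

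Settings chosen after seeing the data kept only genes with more unique windows, and their counts fall because fewer genes remain. They leave the genes tested unchanged, so the shares of all genes are those given for the main setting. With at least 50% unique windows, which leaves 33 genes, 2, 1, 1, 3 and 2 were higher, in the order of the 4 KLA times and the untreated libraries. In the same order, 6, 16, 11, 4 and 11 were lower (18.2%, 48.5%, 33.3%, 12.1% and 33.3%). With at least 80%, which leaves 11 genes, the counts were 0, 0, 1, 1 and 0 higher and 2, 5, 3, 0 and 5 lower. The median at 12 h was then -0.37, and that at 24 h was 0.18 and changed sign. Without Rps20, whose GRCm38 transcript has another length, 10 genes remain, and the counts were 0, 0, 1, 1 and 0 higher and 1, 4, 3, 0 and 4 lower, with a median of 0.1859 at 24 h. The cause was not tested. Within 300 bases of the start, SREBP1 peaks were at 15 genes (17.6%, against 18.8% of all genes tested) and LXR peaks at 40 (47.1%, against 36.5%). With only peaks at or above the median score of the list, SREBP1 peaks were at 20 (23.5%, against 32.6%) and LXR peaks at 18 (21.2%, against 26.2%). Between the untreated libraries the median stayed negative under every alternative run. No paired analysis was possible because each condition had a single library.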
